A study of Populus trichocarpa with 12 samples.

Results

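The 5 loci described here are neighbouring laccase genes of black cottonwood (Populus trichocarpa): Potri.006G096900, Potri.006G097000 and Potri.006G097100 on chromosome 6, and Potri.016G112000 and Potri.016G112100 on chromosome 16. They were picked from 41335 loci by identifier, as adjacent laccase loci already known to be lower in trees that overexpress miR397a. The difference between those trees and wild type therefore chose the members, and it is given below as a description. Where a call or adjusted p of a member is printed, it is not read as a test of that difference. The count table names no genes and the reference gene table paired with none of its identifiers, so the laccase identity was taken as given and was not checked against sequence. Markers of developing xylem and of other tissues could not be looked up for the same reason.

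Laccases are copper enzymes secreted into the cell wall, where they oxidise monolignols so that these can couple into lignin. In young wood they act beside peroxidases in hardening the walls of vessels and fibres. miR397 is a plant microRNA that pairs with laccase mRNAs and directs their cleavage. Tandem copies arise when a gene is duplicated next to itself, and such copies often keep similar sequences.

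The RNA came from developing xylem of greenhouse-grown trees of the Nisqually-1 background. One group was 9 transgenic trees, 1 tree for each of lines 1, 3, 5, 6, 9, 10, 17, 26 and 30, which carried PtrMIR397a under the constitutive CaMV 35S promoter and so were not limited to xylem in their expression of it. The other group was 3 wild-type trees. Their genotype label reads wild type, although the treatment field repeats the transgene text for every sample, and tree age is not given. Counts summed over loci ran from 8015226 to 34112839 per tree. The 9 neighbouring loci of a stretch on chromosome 5 took from 1.14% to 18.9% of them, and high and low shares occurred in both groups.

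All 5 loci were expressed in every tree and stood lower in every line than in every wild-type tree. The lines kept between 31.2% (Potri.016G112000) and 43.6% (Potri.006G096900) of the mean wild-type level. Each locus was among those called lower by edgeR's quasi-likelihood test, 5 of 5 against 0.0799% of the 26298 loci tested, and at each the groups did not overlap, as at 1.18% of the tested loci. Both counts follow from how the members were chosen, and nothing is read from them. In xylem sampled as a whole, fewer cells making a transcript and less of it per cell cannot be told apart.

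**Figure D1:**
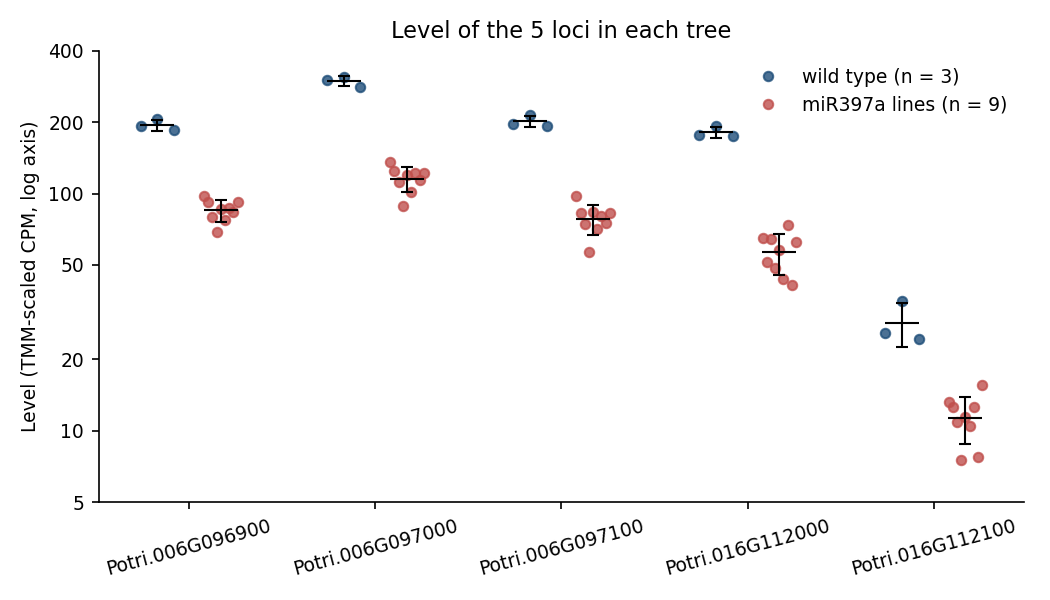
Level of each locus (CPM, counts scaled to library size with TMM factors; log axis) in every tree, with wild-type trees in blue and miR397a lines in red; bars are the mean ± SD of 3 and 9 trees. At every locus the highest line lies below the lowest wild-type tree, with the narrowest gap at Potri.016G112100 (15.5 against 24.4 CPM).

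On chromosome 6, Potri.006G096900 was counted at 193, 205 and 185 CPM in wild-type trees 1, 2 and 3. In the lines its lowest, median and highest levels were 68.9, 85.7 and 97.6 CPM, in lines 6, 9 and 1. The lowest wild-type tree was thus 1.90 times the highest line. Its log2 fold change of -1.20 ± 0.09 (SE; 9 lines minus 3 wild-type trees) was the smallest of the 5 loci.

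Its neighbour Potri.006G097000 drew the most counts of the 5 loci, at 300.4, 311 and 282 CPM in wild-type trees 1, 2 and 3. The lines had 88.3 CPM at the lowest, 120 at the median and 136 at the highest, again with line 6 at the bottom and line 1 at the top. No line reached the level of any wild-type tree, and the log2 fold change was -1.37 ± 0.10 (SE).

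The third chromosome 6 copy, Potri.006G097100, stood at 197, 214 and 193 CPM in the same wild-type trees. Lowest, median and highest among the lines were 56.7 (line 6), 80.3 (line 17) and 98.03 CPM (line 1). This copy varied most of the 3 among the lines, 1.73-fold from lowest to highest, and its log2 fold change was -1.36 ± 0.11 (SE).

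On chromosome 16, Potri.016G112000 had the deepest fall of the 5. Wild-type trees 1, 2 and 3 held 176, 193 and 174 CPM, whereas the lines held 41.2 CPM at the lowest (line 26), 58.0 at the median (line 9) and 73.7 at the highest (line 17). The log2 fold change was -1.68 ± 0.14 (SE), a 3.20-fold lower mean. It is the only member with more than 1 transcript model in the table. Both of its models carried identical counts in all 12 trees, so the table holds no information on which of them was made.

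The second chromosome 16 copy, Potri.016G112100, was the member with the fewest counts, 95 to 953 per tree. It stood at 25.8, 35.3 and 24.4 CPM in wild-type trees 1, 2 and 3, where tree 2 was well above the others. In the lines it ran from 7.52 CPM (line 6) through a median of 11.4 (line 9) to 15.5 (line 30). Its log2 fold change was -1.34 ± 0.18 (SE). It was -1.15 without wild-type tree 2 and -1.27 with library totals in place of TMM factors. Under these settings the locus was no longer called lower (edgeR quasi-likelihood test, adjusted p = 0.0987 and 0.224). The contrast chose the members, so calls kept by a member under other settings are not read as support. CPM is not divided by transcript length, so these levels do not rank the mRNAs of different loci.

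Among the 9 lines the loci differed in how far they varied. The SD of log2 CPM was 0.15 for Potri.006G096900 and 0.18 for Potri.006G097000. Both were near the median of 0.17 over the 13105 loci of at least 10 CPM. It was 0.21 for Potri.006G097100, between that median and the background's upper quartile of 0.24. On chromosome 16 it was 0.29 for Potri.016G112000 and 0.34 for Potri.016G112100, above that quartile. Potri.016G112100 had as few as 95 counts in a tree, and the part of counting error in its spread was not tested. In wild type, tree 2 was highest at all 5 loci, and the SD was 0.07 to 0.08 at 4 of them and 0.28 at Potri.016G112100.

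The order of the lines was nearly the same for the chromosome 6 copies, similar for Potri.016G112100 and less so for Potri.016G112000. Line 6 kept 35.4%, 29.6% and 28.2% of the wild-type mean at Potri.006G096900, Potri.006G097000 and Potri.006G097100, the lowest values in each case. Line 1 kept 50.2%, 45.7% and 48.7%, the highest. At Potri.016G112000, line 26 was lowest with 22.7% and line 17 highest with 40.7%, although line 26 held 38.3% at Potri.006G097000, close to the middle of the lines. Potri.016G112100 was lowest in lines 6 and 26 (26.4% and 27.3%) and highest in line 30 (54.4%).

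**Figure D2:**
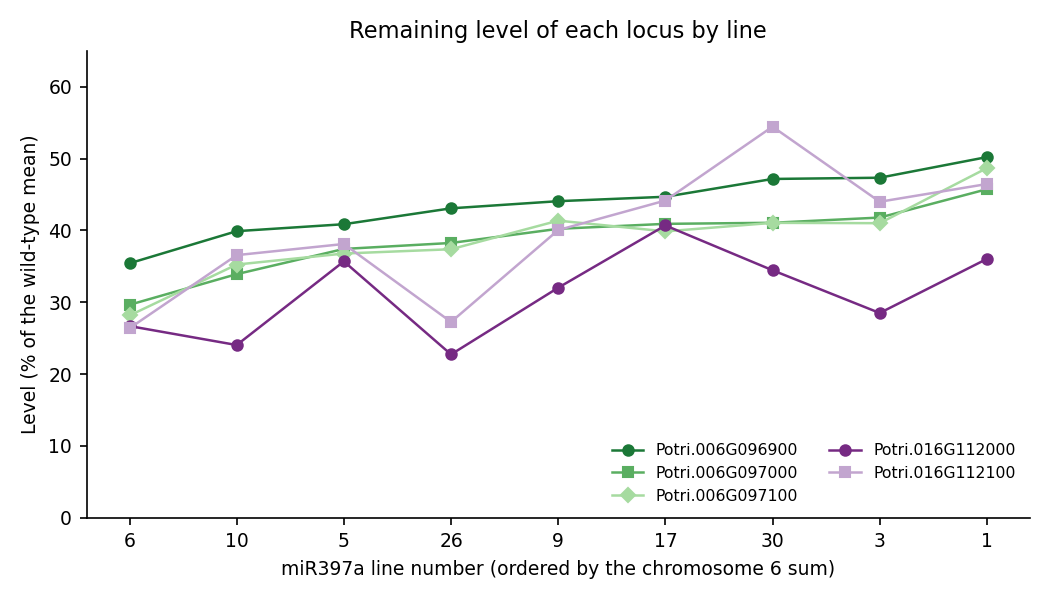
Level of each locus as a percentage of its wild-type mean (y axis) in the 9 miR397a lines (x axis, ordered by the sum of the chromosome 6 loci); each marker is 1 tree and lines join the values of 1 locus. The chromosome 6 copies (green) rise from line 6 to line 1, as ordering by their own sum favours. Potri.006G097100 does not rise at every step. Potri.016G112000 (dark purple) stands at 22.7% in line 26 and 24.0% in line 10.

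Pairs of loci were compared over the 9 lines. The members were chosen on the difference between lines and wild type, though calling that difference also draws on the spread among lines. For the 3 pairs within chromosome 6, Pearson's r was 0.96 to 0.98 and Spearman's rho 0.88 to 1 (exact permutation over all pairings, two-sided; the largest p adjusted over the 10 pairs was 0.00902). Without the 2 lines farthest from the median, r within chromosome 6 was 0.90 to 0.97. That distance was taken at the first locus of each pair in identifier order only, and rho was not computed again. Potri.016G112000 and Potri.016G112100 had r = 0.70 and rho = 0.73 (exact permutation p = 0.0354 and 0.0311; adjusted 0.0506 and 0.0445), and r was 0.59 without the 2 farthest lines (exact permutation p = 0.153). Between chromosomes, Potri.016G112100 had r = 0.75 to 0.78 and rho = 0.80 to 0.87 with the chromosome 6 copies (exact permutation, largest adjusted p = 0.0347 for r and 0.0230 for rho). Over the 7 lines left without the 2 farthest, r was 0.60 to 0.63 (exact permutation, smallest p = 0.132), so the calls on r did not hold over these fewer lines. Potri.016G112000 had r = 0.46 to 0.55 and rho = 0.50 to 0.53 with the chromosome 6 copies (exact permutation, smallest adjusted p = 0.150). The sources used here do not say how reads that align to several copies were treated, and shared reads between neighbours would raise these correlations; their part was not tested.

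The summed levels of the chromosome 6 and chromosome 16 groups had r = 0.59 and rho = 0.60 across the lines (exact permutation, two-sided, p = 0.0892 and 0.0968; adjusted over 8 relations 0.126 and 0.155), which missed the threshold. Without lines 6 and 10 r was 0.36. The value depended on the scaling, since it was 0.93 with library totals (exact permutation p = 0.000438), and on 1 line, since it was 0.71 without line 26 (exact permutation p = 0.0460).

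Within each group, the share of counts that each copy took is free of scaling. In wild-type trees 1, 2 and 3, Potri.006G096900 took 27.9%, 28.1% and 28.0% of the chromosome 6 counts. In all 9 lines the share was larger, from 29.4% (line 1) to 32.2% (line 6), so the groups did not overlap, and in 5 lines the exact 95% interval lay above those of all 3 wild-type trees. The share of Potri.006G097000 was 42.9 ± 0.50% in wild type (SD, n = 3) and 41.5 ± 0.52% in the lines (SD, n = 9), smaller in all 9 lines. Its exact 95% interval lay below those of all 3 wild-type trees in 0 lines. The 3 shares of a tree add to the whole, so a larger share of 1 copy lowers the others. Potri.006G097100 took 29.0 ± 0.43% and 28.0 ± 0.86%, and its groups overlapped. Intervals were 1.26 to 4.06 percentage points wide for these loci and cover counting error only.

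Between the chromosome 16 copies, Potri.016G112100 took 12.8%, 15.5% and 12.3% of the counts in wild-type trees 1, 2 and 3. The lines ranged from 13.5% (line 6) through a median of 16.5% to 19.9% (line 30), and 6 of 9 lay above every wild-type tree. The mean share was 16.7 ± 2.41% in the lines (SD, n = 9) and 13.5 ± 1.70% in wild type (SD, n = 3). These shares come from the same contrast that chose the loci and are not tested.

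**Figure D3:**
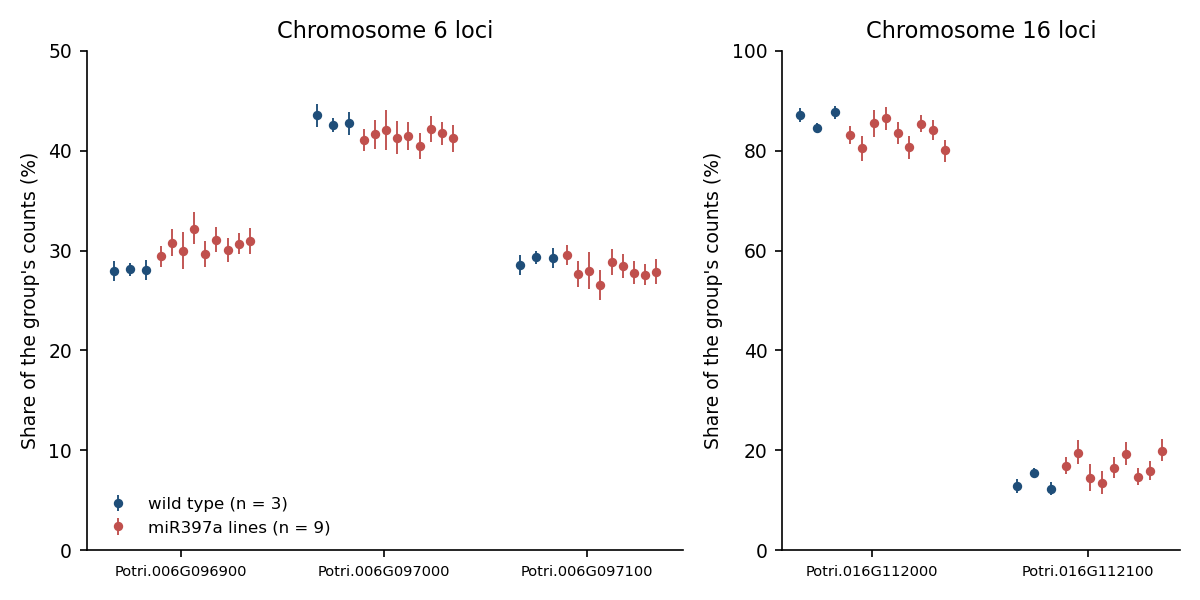
Share of each group's counts taken by each locus (y axis, percent) in wild-type trees (blue) and miR397a lines (red, in the order of line numbers), with exact 95% binomial intervals; the panels have different y ranges. For Potri.006G096900 all lines lie above the wild-type trees (29.4% to 32.2% against 27.9% to 28.1%), and for Potri.016G112100 the groups overlap.

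Set against each other, the chromosome 16 group gave 29.3, 31.2 and 30.1 counts per 100 chromosome 6 counts in wild-type trees 1, 2 and 3. The lines gave 17.9 at the lowest (line 26), 24.0 at the median (line 9) and 29.8 at the highest (line 17). All lines but line 17 were below every wild-type tree. That difference between the groups comes from the same contrast that chose the loci and is not tested. This ratio moved with the share of counts on the chromosome 5 stretch: across the 9 lines r was -0.89 and rho -0.95 on log2 values (exact permutation, two-sided, p = 0.00121 and 0.000353; adjusted over 8 relations 0.00968 and 0.00282). Without lines 17 and 26 r was -0.84 (exact permutation p = 0.0222), and leaving out 1 line gave -0.92 to -0.85. The relation was looked for after the values had been seen. It was computed in the lines only. The 3 wild-type trees differed less in the ratio, at shares of 18.9%, 2.80% and 16.0% in trees 1, 2 and 3.

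By chromosome, the chromosome 16 sum had r = -0.81 and rho = -0.82 with that share (exact permutation p = 0.0107 and 0.0108, adjusted 0.0340 and 0.0287). Without lines 10 and 26 r was -0.63 (exact permutation p = 0.133), so the call did not hold over the fewer lines left. Leaving out 1 line gave r of -0.91 to -0.75. The chromosome 6 sum had r = -0.15 and rho = -0.15 (exact permutation p = 0.714 and 0.708; adjusted 0.779 and 0.708), though r was -0.75 with library totals (exact permutation p = 0.0227). In the 6 trees with a low share (1.14% to 3.91%; 5 lines and wild-type tree 2) the lines kept 38.2% of the chromosome 6 sum and 32.8% of the chromosome 16 sum. In the 6 trees with a high share (7.55% to 18.9%; 4 lines and wild-type trees 1 and 3) they kept 41.1% and 29.5%. No correlation was computed within these sets of 5 and 4 lines. What the stretch's share reflects was not tested.

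**Figure D4:**
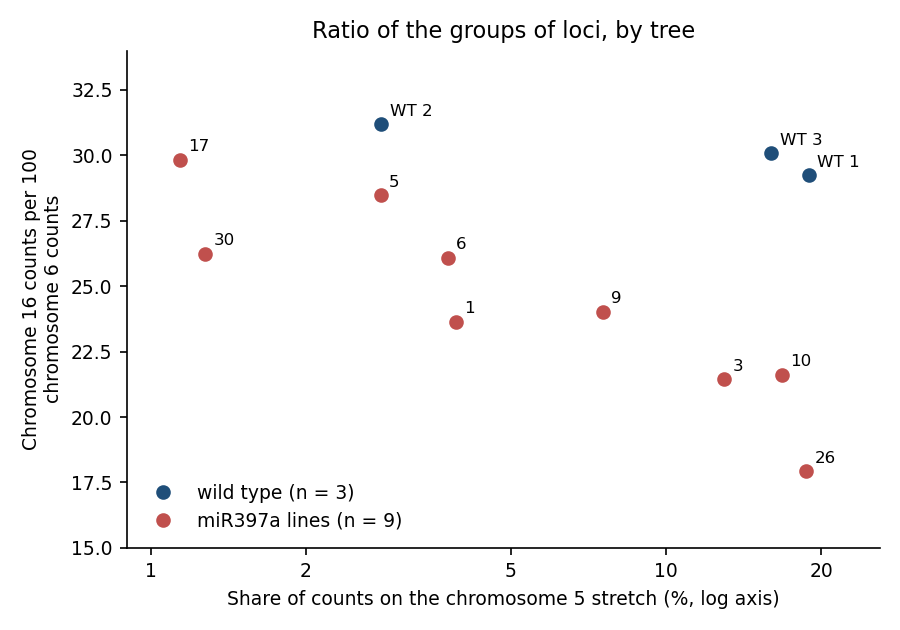
Counts of the chromosome 16 loci per 100 counts of the chromosome 6 loci (y axis, which starts at 15) against the share of each tree's counts on the chromosome 5 stretch (x axis, log scale); points are single trees, labelled by line or wild-type number. The lines descend from 29.8 (line 17) to 17.9 (line 26), and the wild-type trees lie between 29.3 and 31.2.

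No relation of the sums with sequencing depth was called. With the log2 library total, r was 0.11 for chromosome 6 and -0.59 for chromosome 16, and rho 0.23 and -0.37 (exact permutation, smallest p = 0.0946, adjusted 0.126). Without lines 10 and 26 r was 0.01 for chromosome 16. Potri.011G041300, whose opposite course to the lowered loci was known from earlier results of these data, is given as a description only. It had r = -0.79 and rho = -0.83 with the chromosome 6 sum across the lines, and r = -0.70 without lines 6 and 10. With the chromosome 16 sum it had r = -0.64 and rho = -0.67, and r = -0.84 without lines 10 and 26. With library totals these r were -0.55 and -0.26.

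None of the loci around the members passed the test. Of the 40 flanking loci, 10 on each side of each group in identifier order, 21 had enough counts to be tested, and 0 were called (edgeR quasi-likelihood test, lowest adjusted p = 0.316). The call share over all tested loci was 0.0913%, so a count of 0 among 21 says little by itself. DESeq2 and limma-voom called 0 as well. At an unadjusted edgeR p below 0.05 there were 5 of 21 (23.8%, against 11.0% of all tested loci), and their log2 fold changes had both signs. The median log2 fold change of the flanking loci was -0.12, and 11 were lower.

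The locus just before the chromosome 6 group, Potri.006G096800, had a log2 fold change of 1.38 ± 0.44 (SE; adjusted p = 0.344) at only 0.644 CPM in the lines and 0.267 in wild type. The nearest tested locus after the chromosome 6 group, Potri.006G097300, stood at 7.75 ± 0.94 CPM in the lines (SD, n = 9) and 7.20 ± 0.40 in wild type (SD, n = 3). On chromosome 16 the nearest tested loci were Potri.016G111800, at 59.9 ± 7.18 and 52.7 ± 9.18 CPM, and Potri.016G112300, at 42.9 ± 4.40 and 36.7 ± 2.18 CPM in the same order. Their edgeR adjusted p-values were 0.572 and 0.414. The gaps between these and the members held loci with too few counts for the test.

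**Figure D5:**
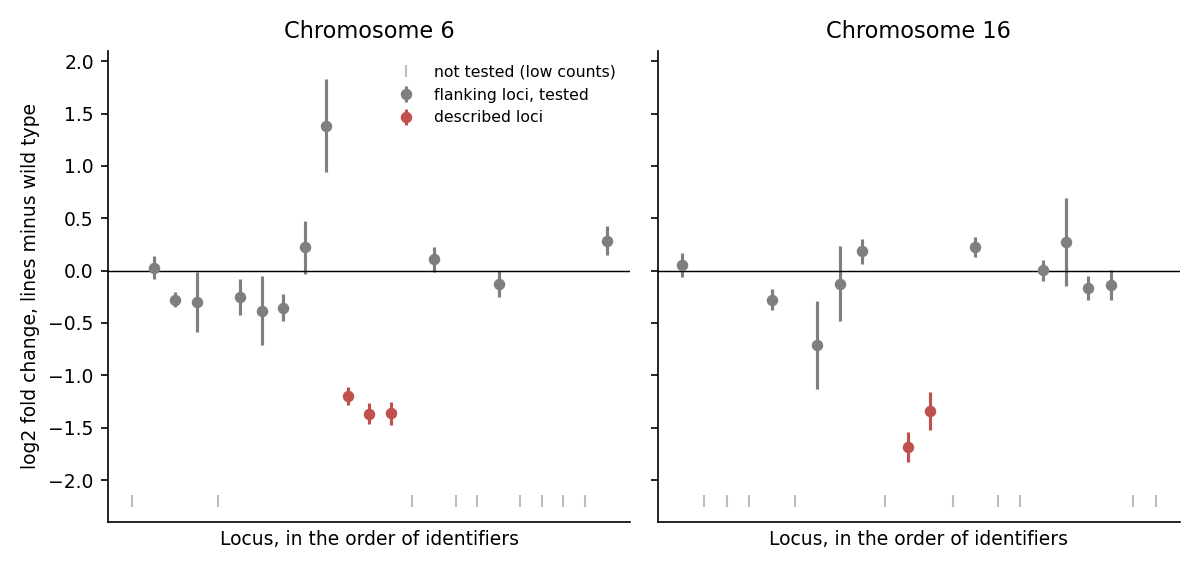
Log2 fold change of lines minus wild type (y axis; error bars are SE) for the 5 loci (red) and the tested loci among 10 on each side (grey), in the order of identifiers (x axis); ticks at the bottom mark loci with too few counts. The 5 described loci lie between -1.68 and -1.20, and the flanking loci between -0.71 and 1.38.

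Over the 9 lines, 13100 other loci of at least 10 CPM were ranked by their Pearson r with each sum, a measure of likeness given with no p. With the chromosome 6 sum only 4 loci reached 0.9. The most alike were Potri.006G194400 (r = 0.94), Potri.006G204700 (0.92), Potri.011G169600 (0.90), Potri.003G018900 (0.90) and Potri.014G152200 (0.90). With the chromosome 16 sum 126 loci reached 0.9 and 195 reached -0.9 or below. The most alike there were Potri.005G177500 (r = 0.97), Potri.001G377400 (0.96), Potri.006G227600 (0.96), Potri.001G372300 (0.96) and Potri.003G077100 (0.96). These 5 had r from -0.85 to -0.65 with the share of the chromosome 5 stretch, whereas the 5 most like the chromosome 6 sum had -0.51 to -0.01. None of the 10 was called between lines and wild type (edgeR, lowest adjusted p = 0.398, Potri.006G194400). All points share the same 9 libraries and scaling.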

How the data were processed

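RNA-seq libraries (TruSeq kit, CTAB-extracted RNA, per the labels' protocols) were made from 12 trees. The authors deposited raw counts for 73013 transcript models. The submitters' processing notes name bedtools 2.14.2, Bowtie, TopHat and TopHat2 2.0.3 without their roles. The sources used here give neither build, annotation nor handling of multiply aligned reads. Where a locus had several models, that with the most counts stood for it. Loci passing filterByExpr (minimum count 10) were TMM-scaled and tested with edgeR 4.0.16 in R 4.3.3 (robust quasi-likelihood, 9 lines against 3 wild-type trees, Benjamini-Hochberg threshold 0.05); SE is the log2 fold change divided by the square root of F. The test was checked on simulated counts. DESeq2 1.42.0 and limma-voom (limma 3.58.1) were alternatives, as were other scaling, filters, transcript models and leaving out each tree. Log2 CPM for correlations used a prior count of 2, with exact permutation over 362880 pairings of 9 lines (SciPy 1.17.1). The labels name no molecular identifiers. Intervals cover counting error only, take each count as independent and leave out variation between trees. Members, lists and relations were chosen with earlier results of these data known. Loci named by rule were the 5 members, the nearest tested flanking loci and the 5 most alike to each sum. Lists of laccases, lignin genes and tissue markers needed gene descriptions and could not be used.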

Additional observations from a re-analysis of the deposited data

How the results depend on the processing

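The log2 fold changes of the 5 loci kept their direction and moved by less than the SD among lines under every alternative run. These runs include the low and high chromosome 5 share sets added after the data were seen. The yardstick is loose, since for Potri.016G112100 that SD was 0.34 and the SE 0.18. In the run with summed groups the value is the group's and not the locus's own (-1.63 for chromosome 16, against -1.34 for Potri.016G112100). Leaving out 1 tree gave -1.23 to -1.15 for Potri.006G096900, -1.41 to -1.33 for Potri.006G097000, -1.41 to -1.32 for Potri.006G097100, -1.74 to -1.63 for Potri.016G112000 and -1.44 to -1.15 for Potri.016G112100. The direction cannot turn there, because the groups do not overlap. The edgeR call of Potri.016G112100 was lost with library totals and without wild-type tree 2. Calls of members that were kept follow from how the members were chosen and are not read as support. No flanking locus was called by edgeR, DESeq2 or limma-voom, or with any tree left out (in the all-tree fits, 2 to 7 had an unadjusted p below 0.05). Across lines, r between the chromosome 6 and chromosome 16 sums was 0.93 with library totals and 0.53 to 0.71 when 1 line was left out; the cause was not tested. The r with library total turned sign in 3 cases: for chromosome 6 it was -0.44 with library totals as scaling and -0.0498 without line 6 (-0.0498 to 0.256 when 1 line was left out), and for chromosome 16 it was 0.0144 without the 2 farthest lines. No paired analysis was possible because line numbers name transgenic lines and wild-type numbers name trees. The planned laccase and lignin list counts were not run for want of gene descriptions. Whether copies share reads was not tested, and the values of single loci are uncertain where they do.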
